A study of Mus musculus with 16 samples.

Results

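The genes described here, 7 of the 23279 symbols in the deposited table, lie on mouse chromosome 5 around Ptpn11, the gene that encodes the phosphatase SHP2. They are Hspb8, Zfp605, Ift81, Bri3bp, Vps33a, Plod3 and A430033K04Rik. They were picked by symbol, with knowledge that their expression shifts with SHP2 status in these libraries, so each SHP2 difference of a member is a description and carries no test. PolyA RNA was sequenced from 16 mouse pre-B cell samples, in 4 groups of 4, pre-B cells being the stage at which B-lineage precursors carry the pre-B cell receptor. Of the cells that lacked BCR-ABL1, 1 group was SHP2 wild-type (+/+) and 1 was SHP2-null (-/-), and so it was for the cells that carried it. BCR-ABL1 is a fusion kinase that drives acute lymphoblastic leukaemia in such cells. The labels do not give the strain or age of the mice, how BCR-ABL1 was introduced, how or when Ptpn11 was deleted, or whether the 4 samples of a group are separate animals or cultures. P-values therefore reflect only the scatter of these samples, which could be technical.

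SHP2 carries signals from receptors and oncogenic kinases to RAS and ERK. A mutated allele is inherited together with the DNA beside it on the chromosome, more often the closer that DNA lies, which is why values are set here against distance from Ptpn11. The strain of the DNA around Ptpn11 is not in the data used, so its part in the differences below was not tested. Apart from A430033K04Rik, which is not described here, the members have unrelated jobs. Hspb8 encodes a small heat shock protein that works with BAG3 in chaperone-assisted autophagy, and Zfp605 a zinc finger protein of the KRAB type, a class known mainly for repressing transcription. Ift81 encodes a tubulin-binding subunit of the IFT-B train that carries cargo into cilia. Vps33a encodes the Sec1/Munc18 subunit of the HOPS and CORVET complexes, which tether endosomes and lysosomes before fusion. Plod3 encodes a lysyl hydroxylase and glycosyltransferase of procollagen, and Bri3bp a membrane protein named for binding BRI3.

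In GRCm38 coordinates with GENCODE M21 gene models, Ptpn11 occupied chr5:121130533-121191397 on the minus strand. The members at lower coordinates were Zfp605 (chr5:110110092-110129794, plus strand), whose start lay 11.1 Mb from that of Ptpn11, and Hspb8 (chr5:116408491-116422864, minus strand), 4.77 Mb away. The 5 at higher coordinates were Ift81 (chr5:122550204-122614518, minus), Vps33a (chr5:123528659-123573038, minus), Bri3bp (chr5:125441568-125460370, plus), Plod3 (chr5:136987019-136996648, plus) and A430033K04Rik (chr5:138622859-138652414, plus), at 1.42, 2.38, 4.25, 15.8 and 17.4 Mb. All 7 are annotated as protein coding.

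The RefSeq promoter table (GRCm38.p6, 250 bases before to 50 after the start) matched 6 of the 7 members, all but Ift81. The promoters of Hspb8, which had the widest SHP2 difference among the members, of Zfp605, which had the widest on the log2(FPKM + 1) scale among those higher in null cells, and of Vps33a, which had the tightest groups, are shown 5′ to 3′ on the strand of the gene. Capitals mark matches on either strand to fixed motifs. In Hspb8 (chr5:116422815-116423114, minus) these are a heat shock element half-site pair, GAANNTTC, at base 253 and GC boxes, GGGCGG, at bases 15, 21 and 197. In Zfp605 (chr5:110109842-110110141, plus) it is an ETS-type sequence, CCGGAAGT, at base 174. In Vps33a (chr5:123572966-123573265, minus) they are a GC box at base 118 and E-boxes, CACGTG, at bases 223 and 239.
Hspb8: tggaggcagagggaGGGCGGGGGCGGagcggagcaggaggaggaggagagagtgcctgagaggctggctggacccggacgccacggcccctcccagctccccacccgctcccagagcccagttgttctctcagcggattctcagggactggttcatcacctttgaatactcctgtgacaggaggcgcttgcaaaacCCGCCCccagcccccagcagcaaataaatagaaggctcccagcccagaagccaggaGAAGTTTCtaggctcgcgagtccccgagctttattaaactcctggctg
Zfp605: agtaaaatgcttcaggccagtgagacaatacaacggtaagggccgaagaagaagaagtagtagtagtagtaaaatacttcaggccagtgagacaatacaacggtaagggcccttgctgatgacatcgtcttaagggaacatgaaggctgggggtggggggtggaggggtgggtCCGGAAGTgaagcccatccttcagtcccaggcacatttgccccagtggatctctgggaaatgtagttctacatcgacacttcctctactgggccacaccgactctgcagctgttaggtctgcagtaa
Vps33a: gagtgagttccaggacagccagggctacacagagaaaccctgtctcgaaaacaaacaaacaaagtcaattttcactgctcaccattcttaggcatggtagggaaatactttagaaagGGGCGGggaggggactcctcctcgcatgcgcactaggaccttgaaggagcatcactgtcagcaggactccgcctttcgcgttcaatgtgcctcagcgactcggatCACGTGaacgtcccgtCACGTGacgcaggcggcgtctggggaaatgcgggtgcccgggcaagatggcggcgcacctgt

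Of the 32851 promoters in that table, 7.86% held GAANNTTC, 3.887% CCGGAAGT, 7.15% CACGTG and 35.658% GGGCGG. The heat shock pair in Hspb8 lay just after the annotated start, which is base 251, and was the only GAANNTTC match in the 6 members' promoters. Bri3bp held 3 GC boxes, A430033K04Rik a GC box and 3 CCAAT boxes, and Plod3 a CCAAT box. CCAAT was present in 37.408% of all promoters. No motif searched was common to all 6 promoters. The other motifs searched on both strands were TATAAA, TTCNNNGAA, TGACGTCA and a heat shock element of 3 units, and no member's promoter held any of them. A match is only a string of letters in this window, and a missing match says nothing of the factor.

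Expression was deposited as FPKM, fragments per kilobase of transcript scaled to library size, and the number of fragments behind a value is unknown. Summed FPKM ran from 348923 to 443702 per library. All 7 members passed the filter of at least 1 FPKM in at least 4 libraries that left 10210 genes for testing. Ift81 passed through its null libraries alone, and Hspb8 through its wild-type libraries alone. Ptpn11 itself read 16.1 to 17.6 FPKM in wild-type and 2.87 to 7.43 FPKM in null cells without BCR-ABL1, and 15.7 to 18.0 and 3.56 to 6.07 FPKM with it, so that 34.5% and 26.6% of the wild-type mean remained. The labels do not name the exons that were deleted. The 12 pre-B marker genes read here, Vpreb1, Igll1 and Rag1 among them, were all detected and summed to 1933 to 2663 FPKM in the 16 libraries.

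Each member's null libraries all lay on one side of its wild-type libraries. Zfp605, Ift81, Vps33a and Plod3 were higher in null cells, and Hspb8, Bri3bp and A430033K04Rik were lower, both with and without BCR-ABL1. Over all genes tested, the 4 null libraries lay apart from the 4 wild-type libraries for 3.1% with BCR-ABL1 (1.42% higher and 1.67% lower in null cells) and 9.09% without it (6.02% and 3.07%), and for 0.911% in both with the same direction. The members' 7 of 7 was built into the choice of the list, and nothing is read from it. The median absolute log2 difference was 0.55 with BCR-ABL1 and 0.50 without it for the members, beside 0.06 and 0.11 for all genes. That gap in size was built into the choice as well. In bulk RNA, less RNA per cell and fewer cells that express a gene cannot be told apart.

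Hspb8 had the widest difference. Its 4 wild-type libraries with BCR-ABL1 read 3.81, 5.04, 7.96 and 9.86 FPKM for replicates 0 to 3, and its null libraries 0.0769, 0.0293, 0.0700 and 0.0114 FPKM. The lowest wild-type library was 49.5 times the highest null library. Without BCR-ABL1 the wild-type libraries read 1.79, 3.06, 5.17 and 6.63 FPKM and the null libraries 0.0319, 0.0225, 0.0965 and 0.162 FPKM. Here too the groups were far apart, and the null libraries were close to 0. Group means were 6.67 ± 2.75 against 0.0469 ± 0.0316 FPKM (SD, n = 4) with BCR-ABL1 and 4.17 ± 2.16 against 0.0782 ± 0.0647 FPKM without it, ratios of 142 and 53.3. In log2(FPKM + 1), the scale of all log2 differences here, which understates changes of low genes, null minus wild type was -2.80 ± 0.27 (SE) and -2.16 ± 0.27. Hspb8 also varied most between replicates of one group, with a coefficient of variation of 41.3% and 51.8% in the wild-type groups. Replicates 0, 1, 2 and 3 took the same order in both wild-type groups, as they did for 937 of the genes tested (9.18%).

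Zfp605 averaged 1.93 times as high in null as in wild-type cells with BCR-ABL1 and 1.95 times without it. With BCR-ABL1 its null libraries read 5.24, 4.65, 5.25 and 4.57 FPKM and its wild-type libraries 2.98, 2.51, 2.39 and 2.34 FPKM. Without BCR-ABL1 they read 3.86, 4.10, 4.27 and 3.72 FPKM and 2.14, 2.13, 1.93 and 1.97 FPKM. The lowest null library was thus 1.53 and 1.74 times the highest wild-type library. The log2 differences were 0.74 ± 0.07 and 0.71 ± 0.07, and 0.03 ± 0.10 (SE) separated them. Mouse KRAB zinc finger genes include near-identical copies, and the assignment of shared reads is not stated, so the Zfp605 level is uncertain.

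Ift81 was the lowest-expressed member, with 1.06% of the genes tested below it in mean FPKM. With BCR-ABL1 its null libraries read 1.45, 1.09, 1.43 and 1.33 FPKM and its wild-type libraries 0.665, 0.622, 0.577 and 0.472 FPKM, a clear gap and a log2 difference of 0.55 ± 0.09 (SE). Without BCR-ABL1 the null libraries read 0.981, 1.15, 1.00 and 0.951 FPKM and the wild-type libraries 0.798, 0.763, 0.435 and 0.913 FPKM. There the nearest null and wild-type libraries differed by a ratio of only 1.04, and the log2 difference was 0.23 ± 0.09. Without wild-type replicate 2, the lowest library, it was 0.15. The SHP2 effect with BCR-ABL1 exceeded that without it by 0.32 ± 0.13 (SE). That excess is a description, since Ift81 was chosen on its SHP2 differences.

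Vps33a was the member with the tightest groups. With BCR-ABL1 its 4 wild-type libraries lay between 9.55 and 9.68 FPKM, and its null libraries read 12.5, 12.1, 12.2 and 13.0 FPKM. Without BCR-ABL1 the wild-type libraries read 8.85, 9.52, 8.90 and 9.17 FPKM and the null libraries 13.2, 12.5, 12.7 and 12.0 FPKM. Null libraries were higher throughout, by 1.30 and 1.38 times in the mean, and the log2 differences were 0.34 ± 0.05 and 0.43 ± 0.05 (SE).

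Plod3 read 4.64, 5.66, 4.69 and 5.32 FPKM in null against 3.44, 4.07, 3.68 and 3.67 FPKM in wild-type cells with BCR-ABL1. Without BCR-ABL1 it read 5.98, 5.70, 6.26 and 6.13 FPKM in null against 3.70, 4.17, 3.44 and 4.14 FPKM in wild-type cells. The groups were closest with BCR-ABL1, where the nearest libraries differed by a ratio of 1.14. The log2 differences were 0.36 ± 0.07 with and 0.53 ± 0.07 (SE) without BCR-ABL1. Plod3 overlaps Znhit1 head to head on the opposite strand, and the use of strand in counting is not stated, so reads of the overlap cannot be told apart.

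Bri3bp was lower in null cells. With BCR-ABL1 its null libraries read 6.67, 6.45, 7.18 and 6.99 FPKM and its wild-type libraries 9.19, 9.73, 9.77 and 9.60 FPKM. Without BCR-ABL1 they read 8.80, 8.10, 7.24 and 8.12 FPKM and 11.5, 11.3, 11.6 and 12.5 FPKM. The null mean was 71.3% and 68.8% of the wild-type mean, and the log2 differences were -0.44 ± 0.06 and -0.49 ± 0.06 (SE).

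A430033K04Rik, a coding gene whose function is not described here, was also lower in null cells. Its null libraries with BCR-ABL1 read 2.05, 2.22, 2.03 and 2.25 FPKM and its wild-type libraries 4.14, 3.41, 3.52 and 3.43 FPKM. Without BCR-ABL1 they read 1.84, 2.21, 1.71 and 1.99 FPKM and 3.24, 2.95, 3.34 and 3.06 FPKM. The groups did not overlap, and wild-type replicate 0 with BCR-ABL1 stood above its 3 companions. The null mean was 59.0% and 61.5% of the wild-type mean, and the log2 differences were -0.56 ± 0.07 and -0.50 ± 0.07 (SE).

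**Figure D1:**
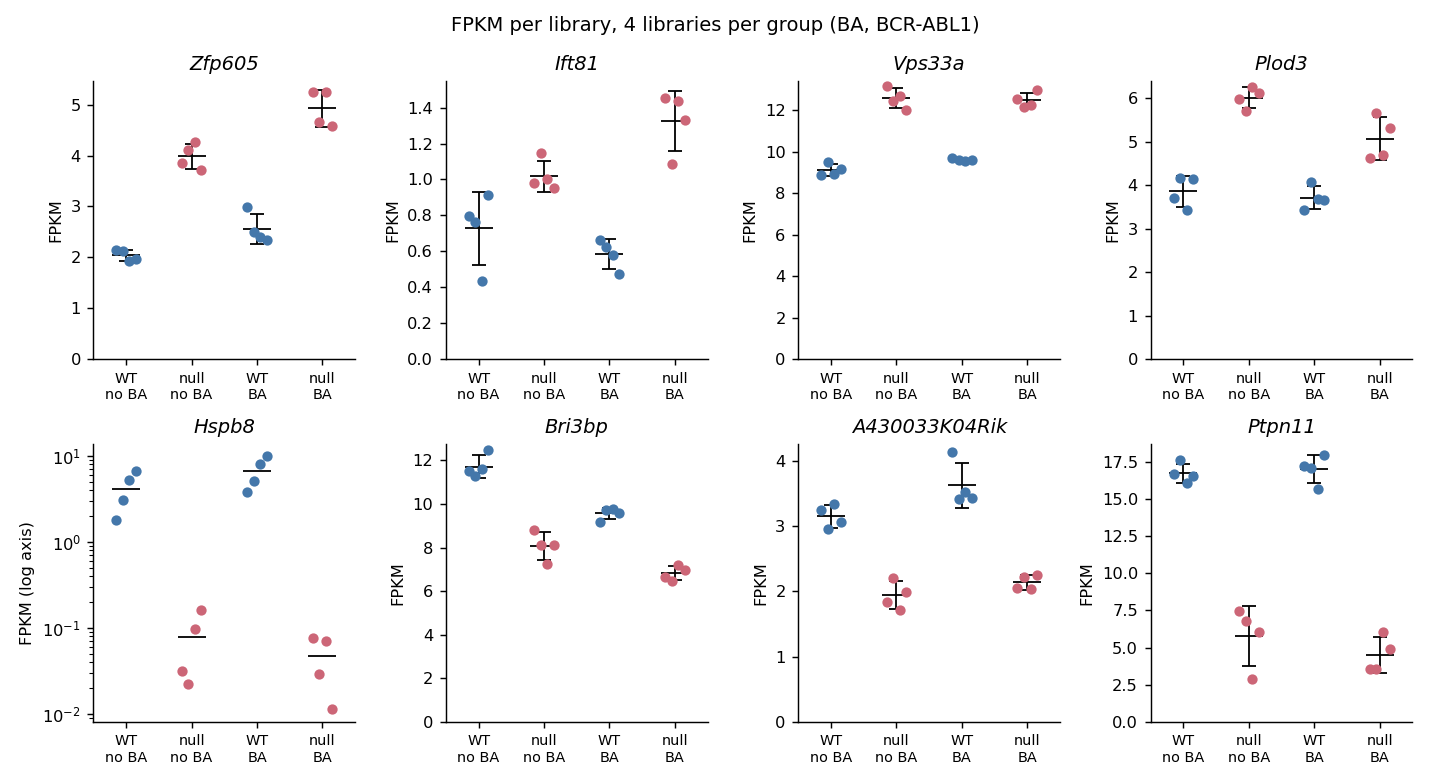
FPKM of the 7 genes and Ptpn11 in each of the 16 libraries, 1 panel per gene, with points for libraries and bars for the group mean ± SD (n = 4). The Hspb8 panel has a log axis and shows means without SD. In each panel of a member the null points lie all above or all below the wild-type points of the same BCR-ABL1 status, with the narrowest gap in Ift81 without BCR-ABL1.

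Among null libraries the highest value exceeded the lowest by a ratio of 2.59 without and 1.71 with BCR-ABL1 for Ptpn11, by 7.18 and 6.74 for Hspb8, whose null values are near 0, and by 1.07 to 1.34 for the other 6 members. Null replicate 2 without BCR-ABL1 had the lowest Ptpn11 of its group, at 2.87 FPKM. In that library 4 of the 7 members lay outside the range of the other 3 null libraries, each farther from the wild-type level. Any library of a group of 4 is often its highest or lowest by order alone. The share over all genes was not computed, so nothing is read from this count. Zfp605 read 4.27 FPKM against 3.72 to 4.10 FPKM, and Plod3 6.26 against 5.70 to 6.13 FPKM. Bri3bp read 7.24 FPKM against 8.10 to 8.80 FPKM, and A430033K04Rik 1.71 against 1.84 to 2.21 FPKM. Hspb8, Ift81 and Vps33a lay within that range. The same library held by far the most RNA of myeloid markers, with a sum over 8 listed genes of 423.9 FPKM against 3.47 to 31.1 FPKM in the 12 libraries of the other groups, mainly through the macrophage lysozyme gene Lyz2 at 403 FPKM, beside at most 34.3 FPKM in any other library. Leaving it out moved no member's log2 difference by more than 0.0451.

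Signals of other cells and of composition moved with SHP2 status in places, and their part in the members' differences was not tested. Summed over 4 genes, mast cell and basophil markers read 6.22 to 11.2 FPKM in wild-type and 0.0286 to 8.13 FPKM in null cells without BCR-ABL1, and 0.408 to 5.22 and 0.0547 to 1.70 FPKM with it, where Cma1 was listed at 0 in all 8 libraries. The summed pre-B markers did not overlap without BCR-ABL1, at 1933 to 2087 FPKM in wild-type and 2224 to 2663 FPKM in null cells. Summed markers of mature B cells ran from 1.27 to 21.8 FPKM and overlapped between the groups, and those of T and NK cells, of erythroid cells and megakaryocytes, and of stromal cells reached at most 3.24, 0.779 and 0.101 FPKM in any library. The correlation of a library's deviations with gene GC content averaged 0.292 in null and -0.0408 in wild-type cells without BCR-ABL1, and -0.104 and -0.0783 with it. Plod3 has the highest GC content of the members, 57.8%, and its log2 difference without BCR-ABL1 was 0.42 after a GC correction.

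The one comparison of the members that their choice did not use is BCR-ABL1 present against absent, averaged over both SHP2 groups. It called 2 of the 7 members, Zfp605 and Bri3bp, where 917 of all 10210 genes tested (8.98%) were called at a limma adjusted p below 0.05. Zfp605 rose with BCR-ABL1, from 2.04 ± 0.107 to 2.55 ± 0.295 FPKM in wild-type and from 3.99 ± 0.247 to 4.93 ± 0.367 FPKM in null cells (SD, n = 4). Its averaged log2 change was 0.24 ± 0.05 (SE, limma adjusted p = 0.00732, 0.0029 to 0.0291 over the alternative settings). Bri3bp fell, from 11.7 ± 0.514 to 9.57 ± 0.265 FPKM in wild-type and from 8.07 ± 0.640 to 6.82 ± 0.326 FPKM in null cells. Its averaged log2 change was -0.24 ± 0.04 (SE, limma adjusted p = 0.00218, 0.000379 to 0.00615 over the alternatives).

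The other 5 members did not pass in that comparison. Their averaged log2 differences were 0.28 ± 0.19 for Hspb8, 0.04 ± 0.06 for Ift81, 0.03 ± 0.03 for Vps33a, -0.13 ± 0.05 for Plod3 and 0.13 ± 0.05 for A430033K04Rik (SE, limma adjusted p = 0.41, 0.756, 0.661, 0.136 and 0.131). For Hspb8 the interval of about 2 SE on each side still holds a rise as large as that of Zfp605. The median absolute log2 difference of the 7 members was 0.13, beside 0.083 for all genes. No member's 8 libraries with BCR-ABL1 lay apart from the 8 without it, as 1.45% of the genes tested did.

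**Figure D2:**
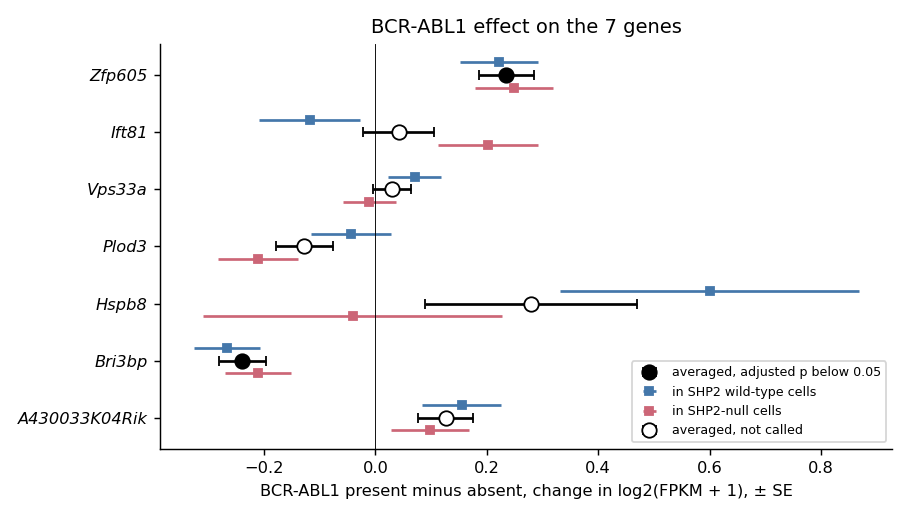
Difference in log2(FPKM + 1) between cells with and without BCR-ABL1 for the 7 genes, ± SE, in SHP2 wild-type cells (blue), in SHP2-null cells (red) and averaged (circles, filled where the limma adjusted p was below 0.05). The filled circles are Zfp605 at 0.24 and Bri3bp at -0.24.

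The SHP2 differences of the members with and without BCR-ABL1 come from separate libraries and were set side by side. The effect with BCR-ABL1 minus that without it was -0.64 ± 0.38 for Hspb8, 0.06 ± 0.08 for Bri3bp, -0.08 ± 0.07 for Vps33a, -0.17 ± 0.10 for Plod3 and -0.06 ± 0.10 for A430033K04Rik (SE). The limma test of this difference over all 10210 genes called none (0.0%), and 591 had an unadjusted p below 0.05. The members were chosen on their SHP2 differences, so for them the values are a description and no test outcome is read. Of the members' values, the widest relative to its error was that of Ift81, given above.

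The tested genes nearest to each member on either side were 14 genes, none of them a member. None of the 14 was called in either SHP2 comparison, where 0.313% of all genes tested were called with BCR-ABL1 and 1.54% without it. In 13 of the 14 the null and wild-type libraries overlapped in both comparisons. Over all genes tested, the null libraries lay apart from the wild-type libraries for only 3.1% with BCR-ABL1 and 9.09% without it. Most genes therefore overlap, and nothing is read from the contrast with the members, which were chosen because they shift. Gtpbp6, whose start lies 1.90 kb from that of Zfp605, averaged 2.90 ± 1.07 FPKM in null against 3.13 ± 1.01 FPKM in wild-type cells with BCR-ABL1 (SD, n = 4). Zfp68, 3.10 kb from A430033K04Rik, averaged 13.2 ± 0.942 and 14.4 ± 1.81 FPKM, and Dhx37, an RNA helicase gene 7.45 kb from Bri3bp, 5.84 ± 1.25 and 6.95 ± 1.33 FPKM. Without BCR-ABL1 Gtpbp6 averaged 3.64 ± 0.726 FPKM in null against 2.86 ± 0.900 FPKM in wild-type cells. Zfp68 averaged 11.1 and 11.8 FPKM there, and Dhx37 7.82 and 8.02 FPKM. Chfr, on the other side of Zfp605, averaged 17.3 ± 0.924 and 14.5 ± 1.26 FPKM without BCR-ABL1 (limma adjusted p = 0.0873). The exception to the overlap of libraries was Znhit1, a gene that shares bases with Plod3. Its libraries were apart without BCR-ABL1, at 10.9 ± 1.32 FPKM in null against 8.02 ± 1.48 FPKM in wild-type cells (limma adjusted p = 0.231), and overlapped with it, at 8.46 ± 2.14 and 8.52 ± 1.47 FPKM.

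**Figure D3:**
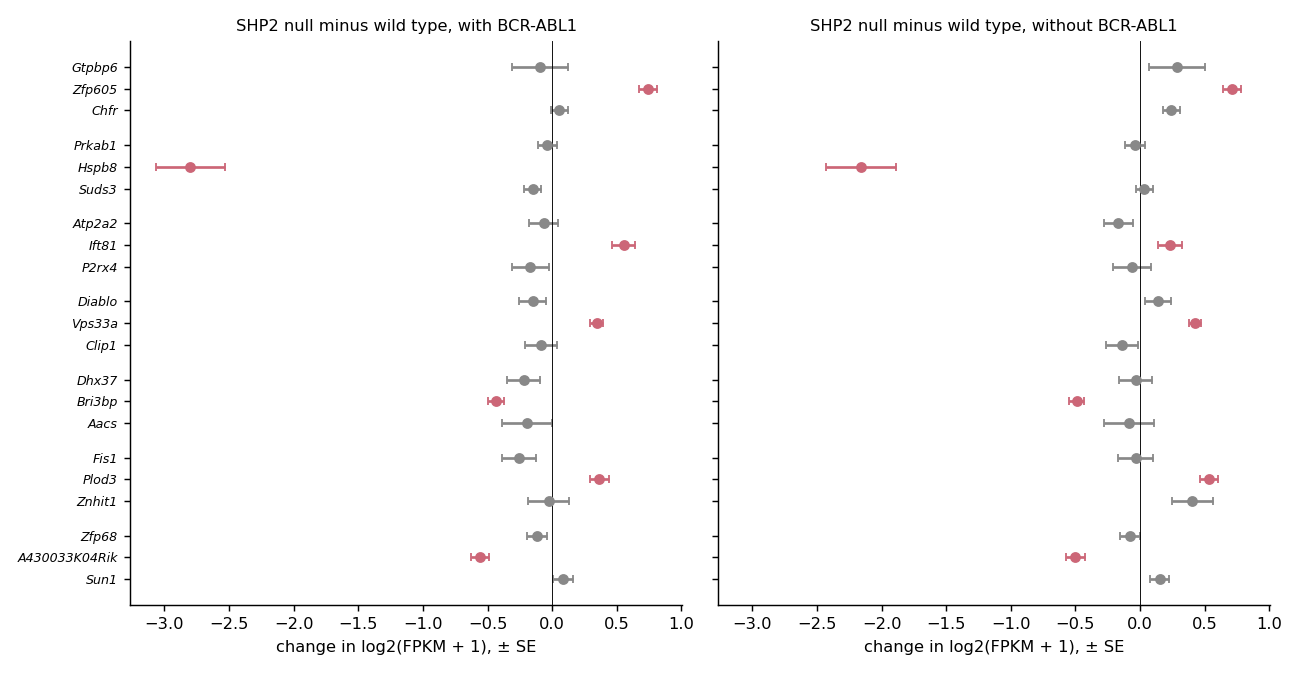
SHP2 null minus wild type in log2(FPKM + 1), ± SE, for each of the 7 genes (red) between its nearest tested neighbours on chromosome 5 (grey), with BCR-ABL1 (left) and without it (right). The grey points lie between -0.26 and 0.40, the latter being Znhit1 without BCR-ABL1, and the red points of the 7 genes lie between -2.80 and 0.74. The 7 genes were chosen on this difference, so their contrast with the neighbours was built in.

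Genes of chromosome 5 that are not members were then read by distance from Ptpn11. Of 285 such genes within 20 Mb, 4 (1.40%) were called in the SHP2 comparison with BCR-ABL1 and 17 (5.96%) in that without it, and 16 (5.61%) had null libraries apart from wild-type libraries in the same direction in both. On the other chromosomes these shares were 0.189%, 1.31% and 0.646% of 8976 genes. Since the members were taken out because they shift, the counts of bins that held members are low by construction, and the order of the bins is not read. At 5 to 10 Mb, a bin with no member, 3 and 7 of 66 genes were called (4.55% and 10.6%) and 8 were apart in both (12.1%). Of the 78 genes under 5 Mb, 0 and 3 were called and 3 were apart in both, and with its 4 members that bin held 4.88% and 7.32% called and 8.54% apart in both. At 10 to 20 Mb the counts were 1, 7 and 5 of 141 genes (2.78%, 6.94% and 5.56% with its 3 members), at 20 to 40 Mb 0, 0 and 3 of 102, and beyond 40 Mb 0, 4 and 2 of 212. The count of calls over all genes without BCR-ABL1 was 157, and 587 with the replicate number as a block.

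**Figure D4:**
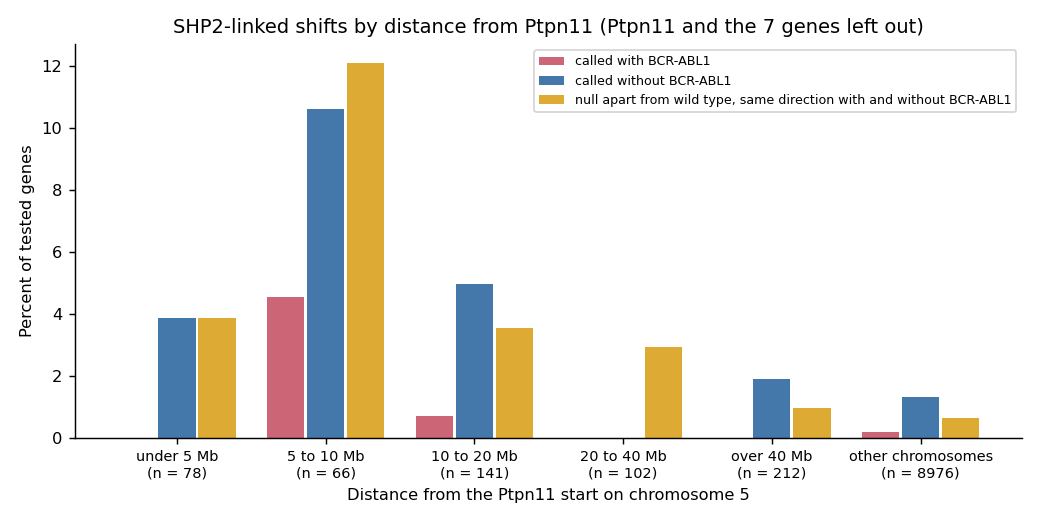
Percent of the tested genes in each bin of distance from the Ptpn11 start that were called with BCR-ABL1 (red), called without it (blue), or had null and wild-type libraries apart in the same direction in both (yellow), with Ptpn11 and the 7 genes left out. The bars at 5 to 10 Mb, where no member lies, stand at 4.55%, 10.6% and 12.1% and those of the other chromosomes at 0.189%, 1.31% and 0.646%, while the bars under 5 Mb and at 10 to 20 Mb are lowered by leaving the members out.

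Chromosome 5 was not alone in this. On chromosome 17, 10 of 530 tested genes (1.89%) were called with BCR-ABL1 and 27 (5.09%) without it, beside 11 (1.82%) and 27 (4.46%) of 606 on chromosome 5 with the members included and Ptpn11 left out. No other chromosome exceeded 0.749% and 2.10%.

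The comparisons with and without BCR-ABL1 share no library, so genes called in one can be read in the other. Both came from the same fit, and whether their cells had separate origins is not given, so the readings may not be independent. The 4 non-members within 20 Mb called with BCR-ABL1 all had the same sign without it, 3 were apart in the same direction and 3 were called. The 17 called without BCR-ABL1 all had the same sign with it, 12 had non-overlapping groups in the same direction, and 3 were called. Among the 17 called genes of other chromosomes in cells with BCR-ABL1, the sign in cells without it matched for 17, 16 were apart in the same direction and 14 were called. Of the 118 called there without BCR-ABL1, 95 had the same sign with it, 36 were apart in the same direction and 14 were called.

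The 3 non-members called in both were Pop5, 1500011B03Rik and 4933404O12Rik. Pop5, which encodes a protein subunit of RNase P and RNase MRP, averaged 15.2 ± 1.54 FPKM in null against 21.8 ± 1.80 FPKM in wild-type cells without BCR-ABL1 (SD, n = 4), 5.96 Mb from Ptpn11. Its log2 change was -0.53 ± 0.08 with and -0.49 ± 0.08 without BCR-ABL1 (SE, limma adjusted p = 0.0053 and 0.00435). The second call was lost when those 2 groups were fitted alone (adjusted p = 0.0711). The lincRNA 4933404O12Rik, 15.7 Mb from Ptpn11 and, like Plod3, on its high-coordinate side, rose from 3.12 ± 0.360 to 6.21 ± 1.17 FPKM with BCR-ABL1 and from 2.65 ± 0.463 to 6.50 ± 1.49 FPKM without it. Its log2 changes were 0.80 ± 0.14 and 1.03 ± 0.14 (SE, limma adjusted p = 0.0215 and 0.00153). The first of these was lost on leaving out any of 5 libraries, all with BCR-ABL1, namely null replicates 0 and 1 and wild-type replicates 0, 2 and 3 (adjusted p up to 0.108).

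The coding gene 1500011B03Rik rose by log2 0.50 ± 0.10 and 0.41 ± 0.10 (SE, limma adjusted p = 0.0338 and 0.041). Both calls were near the threshold and were lost without any of 8 and of 11 libraries, with adjusted p up to 0.166 and 0.121 over all settings. The remaining gene called with BCR-ABL1, Gltp, which encodes a glycolipid transfer protein and is named because its value was seen, averaged 10.2 ± 0.876 FPKM in null against 13.6 ± 0.741 FPKM in wild-type cells (limma adjusted p = 0.0239). It had the same sign without BCR-ABL1, with a log2 difference of -0.16 ± 0.07 (adjusted p = 0.274), and its call was lost on leaving out any of 5 libraries with BCR-ABL1 (null replicates 0 and 2, wild-type replicates 0, 1 and 3).

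**Figure D5:**
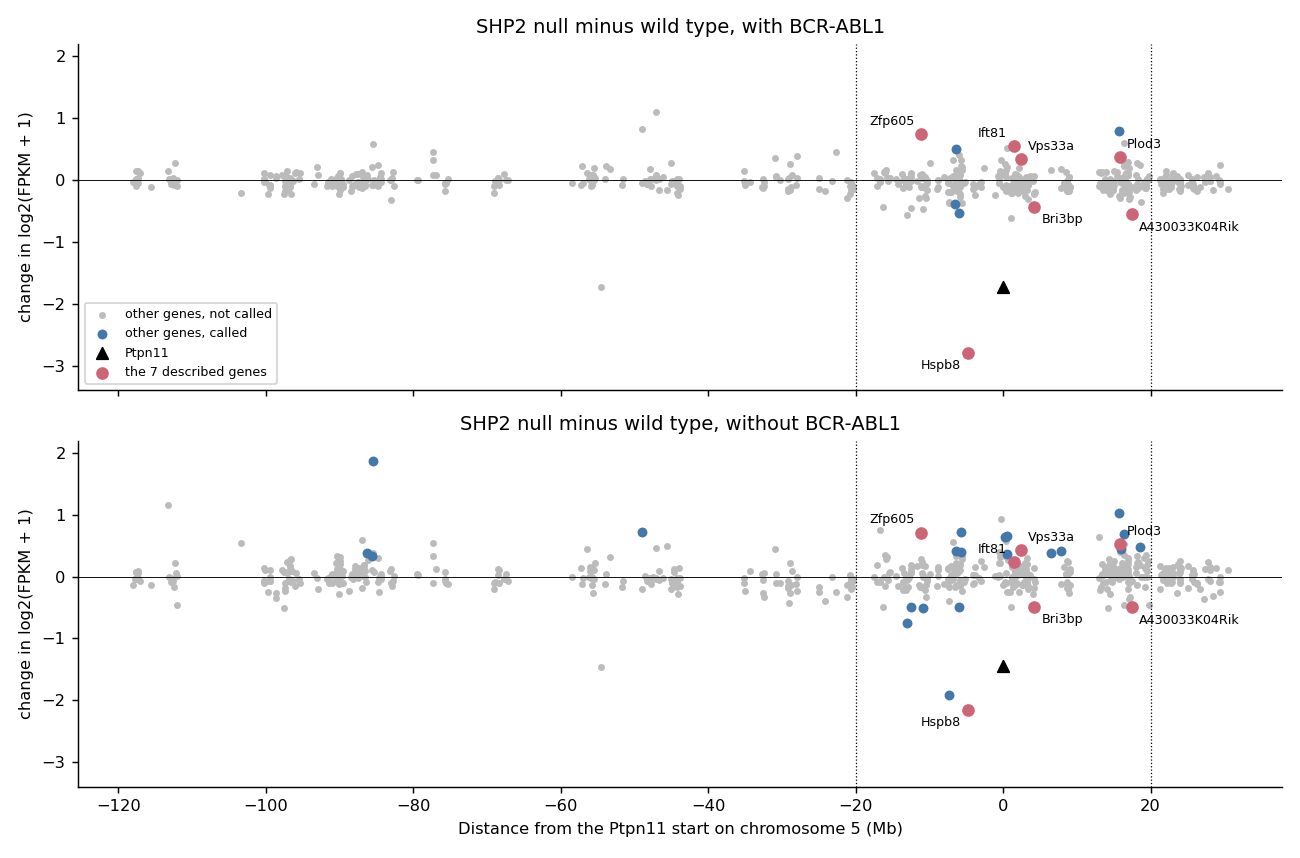
SHP2 null minus wild type in log2(FPKM + 1) for every tested gene of chromosome 5 against the distance of its start from that of Ptpn11, with BCR-ABL1 (top) and without it (bottom). Dotted lines mark 20 Mb on either side, red points are the 7 genes, the triangle is Ptpn11 and blue points are other called genes, of which 4 lie within 20 Mb in the top panel and 17 in the bottom panel.

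The genes whose levels followed each member most closely over the 16 libraries lay mainly on chromosomes 17 and 5. Likeness was Pearson's r of log2(FPKM + 1), a description in which all points share the same libraries and the SHP2 difference itself. Of the 21 places for the 3 most alike genes of the 7 members, 11 fell to chromosome 17 and 4 to chromosome 5. The places are not separate, since 9030025P20Rik, Gm3435 and Cacna1h of chromosome 17 recurred among them. Those of chromosome 5 went to Pxn, to Ptpn11 and to Vps33a and Zfp605, which are members themselves. Hspb8 was most like Zfp213 (r = 0.947), Cacna1h (r = 0.939) and Nanos1 (r = 0.911), and most unlike 9030025P20Rik (r = -0.942). Zfp213, a zinc finger gene, averaged 4.77 ± 0.805 FPKM in wild-type and 2.24 ± 0.327 FPKM in null cells with BCR-ABL1, and 9030025P20Rik 3.65 ± 0.305 and 10.3 ± 0.873 FPKM (SD, n = 4). Cacna1h, a calcium channel gene, averaged 1.08 ± 0.159 FPKM in wild-type cells with BCR-ABL1 and was at or near 0 in every null library.

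Vps33a was most like Gm3435 (r = 0.982), 9030025P20Rik (r = 0.967) and 2210404J11Rik (r = 0.962), and most unlike Cacna1h (r = -0.962). Zfp605 had Gm3435 (r = 0.960), 2210404J11Rik (r = 0.949) and Vps33a (r = 0.936) as its nearest genes and Bri3bp (r = -0.959) as the opposite. Ift81 was most like 2210404J11Rik (r = 0.862), 9030025P20Rik (r = 0.856) and Zfp605 (r = 0.854) and most unlike Cacna1h (r = -0.870). These 3 members thus shared 2210404J11Rik, which averaged 8.26 ± 0.565 FPKM in null against 5.30 ± 0.176 FPKM in wild-type cells with BCR-ABL1.

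Bri3bp was most like Ergic1 (r = 0.902), Mars2 (r = 0.899) and Ptpn11 (r = 0.898), with Zfp605 as its opposite. A430033K04Rik was most like Cacna1h (r = 0.938), Mid1 (r = 0.930) and Zfp40 (r = 0.917), and most unlike 9030025P20Rik (r = -0.946). Plod3 was the only member led by a chromosome 5 gene, Pxn (r = 0.922), which encodes the adhesion adaptor paxillin, followed by 9030025P20Rik (r = 0.895) and Eme2 (r = 0.893), with Zfp157 (r = -0.924) as its opposite. Pxn averaged 13.2 ± 1.54 FPKM in null against 10.3 ± 1.05 FPKM in wild-type cells with BCR-ABL1, and 16.0 ± 2.51 and 9.24 ± 1.21 FPKM without it. Between members, the absolute r ran from 0.672 to 0.959 over 21 pairs. The SHP2 split on which the members were chosen is part of every such r, so nothing is read from this range.

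The partners of the members' proteins were read as lists chosen with earlier results of these data known. In the SHP2 comparison with BCR-ABL1 none of these lists held a called gene, and without BCR-ABL1 1 gene did. Of 14 genes of the HSPB8 and BAG3 pathway 8 were tested and none was called in any comparison. Bag3 itself did not reach the filter. The constitutive chaperone gene Hspa8 averaged 1593 FPKM in null against 1744 FPKM in wild-type cells with BCR-ABL1, and the autophagy receptor gene Sqstm1 37.6 and 37.3 FPKM. The median log2 difference of the 8 genes was -0.07 with and 0.15 without BCR-ABL1, beside medians of -0.02 and 0.02 for all genes.

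Of 18 IFT-B genes 16 were tested, and none was called with SHP2 loss, with median log2 differences of 0.04 and 0.09. With BCR-ABL1, 5 of the 16 rose and none fell, where 8.98% of all genes were called, with a median of 0.10 beside 0.01 for all genes. Ttc30a1 rose by log2 0.33 ± 0.06 (SE, limma adjusted p = 0.00156) and Ift88, a core subunit, by 0.23 ± 0.04 (adjusted p = 0.00352), and both stayed called under every alternative run. Ttc26, Ttc30b and Ift80 rose with adjusted p of 0.0371, 0.0463 and 0.0337, and each of these calls was lost on leaving out any of 9, 12 and 11 single libraries. Ttc30a1 and Ttc30b are close paralogues, so their split is uncertain.

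Of 15 genes of the HOPS, CORVET and CHEVI tethering complexes and their small GTPases and SNAREs, 14 were tested. None was called with SHP2 loss, and Vps33b, the paralogue of Vps33a, averaged 10.4 FPKM in null against 11.2 FPKM in wild-type cells with BCR-ABL1. With BCR-ABL1, 3 of the 14 rose and none fell, again beside 8.98% of all genes, with a median of 0.11 beside 0.01. Vps41, a HOPS subunit, rose by log2 0.23 ± 0.05 (SE, limma adjusted p = 0.013) and stayed called under every alternative run. Vps8 and Vipas39 rose with adjusted p of 0.048 and 0.0405, and those calls were lost without any of 13 and of 12 single libraries.

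Of 15 procollagen-modifying genes 5 were tested and none was called, with medians of 0.06 and -0.14 for SHP2 loss. Plod2, a relative of Plod3, averaged 11.6 FPKM in null against 7.26 FPKM in wild-type cells with BCR-ABL1 and 4.98 and 6.32 FPKM without it. Of 10 genes of KRAB-mediated repression all were tested, and the corepressor gene Trim28 averaged 111 FPKM in null against 120 FPKM in wild-type cells with BCR-ABL1. The one call was Daxx, a chromosome 17 gene for a histone chaperone, which rose with SHP2 loss without BCR-ABL1 from 12.9 ± 0.976 to 15.5 ± 0.618 FPKM (SD, n = 4, limma adjusted p = 0.0434), a call lost without any of 15 of the 16 libraries. Its log2 change was 0.25 ± 0.06 (SE), and 0.14 after a GC correction. None of 5 genes around BRI3BP, namely Bri3, Itm2b, Itm2c, Trp53 and Mdm2, was called in any comparison.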

How the data were processed

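Paired reads came from TruSeq Stranded mRNA libraries of 16 pre-B samples, per the labels' protocols. The authors deposited FPKM values by gene symbol. Per the submitters' processing notes, reads were handled with Bowtie and Cufflinks on mm10 (GRCm38). Matters not given in the sources used here are tool versions, the annotation, strand use and multiply mapped reads. The table held 23758 entries, and those of 254 symbols listed more than once were summed. All 16 per-library files held the same values. Depth is unknown: among genes under 0.05 FPKM the commonest ratio between 2 libraries held, within 1%, for 9.51% to 18.8%, so whole reads were not recovered.

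The members and gene lists were chosen with earlier results of these data known. A single limma fit (limma 3.58.1, R 4.3.3) of 4 group means with a trended prior was made on log2(FPKM + 1) over the 10210 genes that reached 1 FPKM in 4 or more libraries. Two-sided p-values were adjusted by Benjamini-Hochberg over all of these, and an adjusted p below 0.05 was a call. On simulated data the fit recovered 94.5%, 91.8% and 99.0% of genes changed by log2 1 for SHP2 loss with BCR-ABL1, without it, and BCR-ABL1. True calls numbered 103, 89 and 104 at log2 1 and 91, 103 and 95 at log2 2. There were 16, 13 and 21 false calls among 10210 genes, in each case a larger share of all calls than the threshold of 0.05. Only better-expressed genes were changed there, none by less than log2 1, and the noise was independent between libraries. These rates therefore do not cover low genes, smaller changes or deviations that libraries share. Named genes are the members, Ptpn11, the nearest tested gene on each side of a member, the 3 most alike and the most unlike gene, called genes of the lists, and non-members within 20 Mb called in both SHP2 comparisons; list genes without a call and Gltp were named after their values were seen.

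Libraries of the same replicate number deviated together in every pair of the SHP2 comparisons (r from 0.218 to 0.783 with and 0.189 to 0.51 without BCR-ABL1, read from the data), so the number was also used as a block. Some libraries of unlike number were more alike. Wild-type replicate 2 and null replicate 3 had r = 0.822 with and 0.538 without BCR-ABL1, beside 0.338 and 0.189 for wild-type and null replicate 2. Whether the numbers mark true pairs is therefore not known. Alternatives were another pseudocount, other filters and scalings, the groups alone, each library left out and, added after seeing the data, a GC correction. Figures used matplotlib 3.10.9. 1 pre-B marker is not reported here.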

Additional observations from a re-analysis of the deposited data

Results flagged for a closer look

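A430033K04Rik read 4.143 FPKM in replicate 0 of the wild-type group with BCR-ABL1, against 3.41 to 3.52 FPKM in replicates 1 to 3, so that 1 library stood far from the other 3. This was the only such case in 28 checks of 7 genes in 4 groups, and chance alone flags about 1 group in 20. Without that library the SHP2 difference with BCR-ABL1 was -0.50 on the log2 scale, beside -0.56 with it.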

How the results depend on the processing

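The SHP2 differences of the 7 members kept their sign under all alternatives run, and 159 of 163 values with and 157 of 163 without BCR-ABL1 moved by less than the spread between replicates. Leaving out 1 library could not turn a sign, since each member's null and wild-type libraries lay apart. No filter, the block, the groups alone and leaving out a library of the other BCR-ABL1 status leave the difference unchanged by construction. These counts are therefore no sign of robustness. The calls and non-calls of the members for BCR-ABL1 stayed as they were in 156 of 156 values, except that Zfp605 was not tested where a mean of 5 FPKM was asked, which left 1 called member. Counts over all genes moved more. SHP2 loss with BCR-ABL1 called 32 genes, 11 with a mean of at least 5 FPKM, and 20 to 35 when single libraries were left out (21 and 20 without replicate 2 or 3 of the wild-type group). SHP2 loss without BCR-ABL1 called 157 genes, 70 with that filter, 34 when fitted on its 2 groups alone, 587 with the replicate block, and 80 to 164 when single libraries were left out (103 without null replicate 2, 80 and 102 without wild-type replicate 2 or 3, all without BCR-ABL1). BCR-ABL1 called 917 genes, 408 with that filter, and 565 to 1053 when single libraries were left out (598 without wild-type replicate 2 without BCR-ABL1, 565 without null replicate 2 and 588 without wild-type replicate 0 with it), the number of called members staying at 2. With the replicate block it called 1980 genes. Same-number libraries had r above 0.1 in 7 of 8 pairs for that comparison (0.0549 to 0.68). The main fit did not pair libraries by number, while the block did. The difference between the SHP2 effects called 0 genes, 3 with no filter on low values, 0 with the replicate block, and 0 to 1 when single libraries were left out (1 without null replicate 2 or wild-type replicate 1, both without BCR-ABL1, or wild-type replicate 2 with it). The cause of these shifts was not tested. Unknown depth limits Hspb8 in null cells most: its ratios rest on values under 0.2 FPKM, and with a pseudocount of 0.1 its log2 differences were -5.46 and -4.49, and those of Ift81 1.06 and 0.47.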
